A study of Mus musculus with 2 samples.

Results

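Mature dendritic cells that carry Ccr7 and Fscn1 were examined among leukocytes sorted from AB1-HA mesothelioma tumours of mice. The cells were chosen by transcripts: at least 1 UMI (unique molecular identifier, a tag that marks 1 captured RNA molecule) of Ccr7 and 1 of Fscn1, at least 1 UMI in any of the 5 supporting genes Ccl22, Il4i1, Cacnb3, Socs2 and Apol7c, no UMI of the T cell gene Cd3e, and at most 2 UMIs of Col3a1 and Col1a2 together. This gate held 76 of the 18964 cells that passed the quality filter, 55 from the control library and 21 from the anti-VEGF library. The values of these genes chose the cells, so their levels are described and not tested.

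The study has 1 library for a control antibody and 1 for an antibody to VEGF, the vascular endothelial growth factor that drives vessel growth. Both libraries came from tumours grown from AB1-HA mesothelioma cells, taken apart with collagenase and DNase, and from live CD45+ cells sorted with propidium iodide. The sources used here do not give the strain, the number of mice, the age of the mice, the antibody dose or the time of treatment. With 1 library per group, a difference between the antibodies cannot be told apart from a difference between the 2 preparations, and no test between them was possible.

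Conventional dendritic cells take up antigen in tissues and present its peptides on MHC molecules. On maturation they stop taking up antigen, raise costimulatory molecules such as CD80 and CD40, and gain CCR7, the receptor for the chemokines CCL19 and CCL21 that guides them to lymph nodes. Fascin, the product of Fscn1, bundles actin filaments into the long processes of these cells. In tumours this state is known to combine costimulatory and IL-12 genes with inhibitory ones such as Cd274 and Cd200.

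The control library held 233687412 UMIs over 11687 barcodes and the anti-VEGF library 213948867 over 8825. The filter (at least 300 genes and 500 UMIs, at most 10% mitochondrial UMIs) kept 10805 and 8159 cells with medians of 18265 and 22503 UMIs. The libraries shared 35 barcodes, none of which belonged to a mature dendritic cell. Mature dendritic cells were shallower than the average cell. They held 1206 to 81476 UMIs (median 14189) in the control library and 5087 to 74371 (median 12043) in the anti-VEGF library, and 10 of the control cells lay under 5000 UMIs.

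Most cells carried more of the selecting genes than the rule required. Ccr7 ranged from 1 to 107 UMIs per cell (median 20) and Fscn1 from 1 to 93 (median 19.5). Of the supporting genes, 4 were detected in 30 of 55 control and 15 of 21 anti-VEGF cells, 3 in 12 and 6 cells, and 2 in 7 control cells. Apol7c had no UMI in any of the 76 cells. Just inside the rule, 4 control cells held 1 UMI of Ccr7 and 1 of Fscn1, and 6 control cells held a single supporting gene at a median of 1618.5 UMIs in all. Just outside it lay 34 control and 19 anti-VEGF cells with Ccr7 and a supporting gene but no Fscn1. Those excluded cells held a median of 138 C1q UMIs in each library and 99.8 and 87.8 CPM of Ccl22, where CPM scales the summed UMIs of a gene by all UMIs of the cells summed. A further 4 control cells and 1 anti-VEGF cell met every condition except the collagen limit. Ptprc, the gene of the CD45 molecule used in the sort, had a UMI in 76.4% of control and 85.7% of anti-VEGF members.

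The label was checked against markers of dendritic and other cells. The 10 dendritic cell markers came to 3554 CPM over control members and 2870 CPM over anti-VEGF members, against 1089 and 991 CPM in the 4143 and 3561 macrophage-gated cells (C1q, Adgre1 and Csf1r present, Ccr7 and Flt3 absent, so that Flt3 among these markers is 0 there by rule). The dendritic cells gated on Flt3, described below, held 10464 and 8670 CPM of them. Most of the sum over members came from H2-Aa, an MHC class II gene, and Irf8, whose levels are given below. All 10 markers were present in the control members, and 9 in the anti-VEGF members, where Itgax was at 0. Markers of T cells (4.4 and 0 CPM), NK cells (1.76 and 0 CPM) and endothelium (5.28 and 8.74 CPM) were near 0, where the T cell gene Cd3e is 0 by rule. Fibroblast, mesothelial and tumour markers came to 36.9 and 23.3 CPM, and B cell markers to 36.9 and 17.5 CPM, with Col3a1 and Col1a2 of the former limited by rule. The 9 markers of plasmacytoid dendritic cells came to 560 and 615 CPM, near the 596 and 553 CPM of macrophage-gated cells, with 6 and 4 of them detected and the defining gene Siglech at 0. The 8 monocyte markers came to 1887 and 941 CPM with 6 detected in each library, and Ly6c2 and Chil3 at 0.

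Transcripts of other myeloid cells were present and uneven. The 12 macrophage markers came to 10792 CPM in control members, where 12 of 12 were detected, and 5658 CPM in anti-VEGF members, where Mertk was at 0. Macrophage-gated cells held 23242 and 21300 CPM of the same markers. At least 10 UMIs of the complement genes C1qa, C1qb and C1qc, which macrophages make, were found in 20 of 55 control and 2 of 21 anti-VEGF members. At least 10 UMIs of Acp5 and Ctsk, enzymes of bone-resorbing osteoclasts, were found in 10 control members and in no anti-VEGF member. The 6 osteoclast markers came to 2153 and 125 CPM, and the 8 neutrophil markers to 705 and 956 CPM. In each library 1 cell had at least 10 UMIs of S100a8 and S100a9. Whether these cells were doublets, had taken up other cells or carried free RNA was not tested, and no doublet caller was run.

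Results below are therefore also given for the 45 members (27 control, 18 anti-VEGF) with under 10 UMIs in each of these 3 gene groups, a limit set after the data were seen. In those 45 cells the macrophage markers came to 557 and 480 CPM and the neutrophil markers to 19.6 and 36.6 CPM, sums that the limit itself lowers because it uses genes of both lists. They held a median of 11028 UMIs and 20.3 Ccr7 UMIs per 10000, against 28399 UMIs and 7.51 Ccr7 UMIs per 10000 in the other 31 members. The other 31 members were thus deeper and poorer in Ccr7 per UMI. Sums over all members weight each cell by its UMIs, so these deeper cells weigh more in them. They were 28 of 55 control and 3 of 21 anti-VEGF members. Members with at least 10 C1q UMIs held 18674 and 16952 CPM of the macrophage markers, a list that includes C1q. Values over all members therefore mix both kinds of cells, above all in the control library. The limit is a count of UMIs, which deeper cells reach more easily, so the gap in depth follows from it in part.

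**Figure D1:**
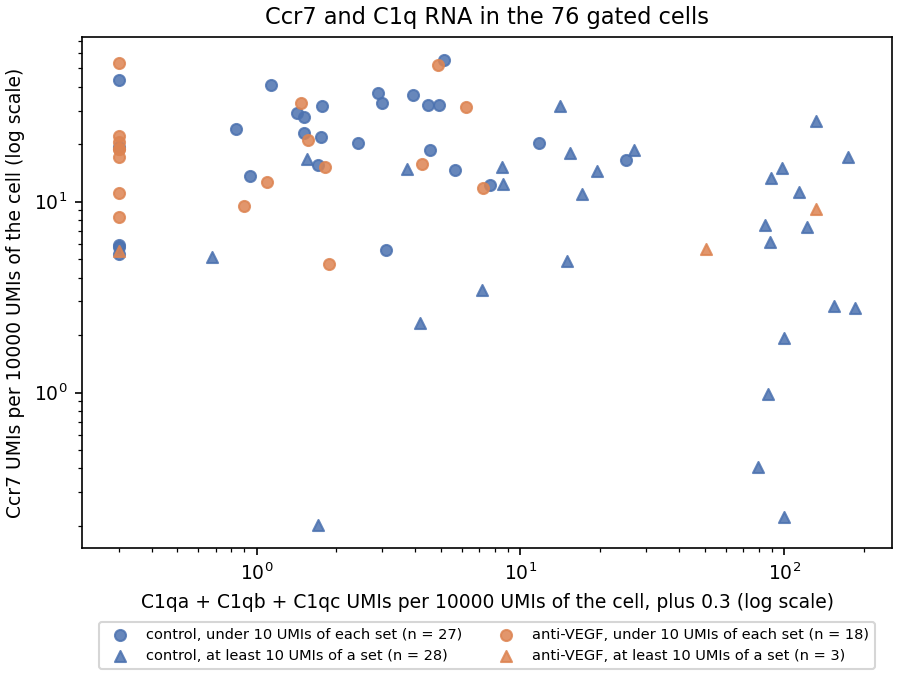
Each point is 1 of the 76 gated mature dendritic cells, coloured by library, with Ccr7 UMIs per 10000 on the y axis against C1qa, C1qb and C1qc UMIs per 10000 (plus 0.3) on the x axis, both log scales; triangles hold at least 10 UMIs of 1 of the 3 gene groups. C1q reached at least 10 UMIs in 20 of 55 control and 2 of 21 anti-VEGF cells.

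Mature dendritic cells made up 0.509% of filtered control cells (95% Clopper-Pearson interval 0.384 to 0.662, counting error only) and 0.257% of filtered anti-VEGF cells (0.159 to 0.393). The 2 intervals overlapped narrowly. Restricted to the cells low in other myeloid transcripts, the shares were 0.25% (0.165 to 0.363) and 0.221% (0.131 to 0.348), and the difference shrank to -0.0293 percentage points. Dendritic cells that had Flt3, the receptor for the growth factor that sustains the lineage, and lacked Ccr7 numbered 27 and 18. These Flt3-gated cells also needed at least 2 of Zbtb46, Xcr1, Clec9a, Cd209a and Dpp4. Mature cells were 67.1% of all gated dendritic cells in the control (55.8 to 77.1, of 82 cells) and 53.8% in the anti-VEGF library (37.2 to 69.9, of 39 cells). Without the mature cells rich in other myeloid transcripts the share was 50% in each library. The limit was set on the mature cells alone, and all 27 and 18 Flt3-gated cells were kept. In the cells low in other myeloid transcripts the intervals of the 2 libraries overlapped widely. The limit, set after the data were seen, removed 28 of 55 control and 3 of 21 anti-VEGF members. The smaller difference between the libraries follows from that removal, and no test between them was possible.

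Mature dendritic cells were then compared with the Flt3-gated cells, the closest dendritic cells in these tumours. UMIs were summed per library and gate, which gave 4 sums, and tested with edgeR's quasi-likelihood test, library as a block, with Benjamini-Hochberg adjustment over all genes. Log2 differences are mature minus Flt3-gated, with their standard error (SE). Each gate has 2 sums and library is a block, so 1 gene alone says little about its spread between the 2 libraries. The test shares the spread across genes, and p-values rest largely on that shared spread. A small p-value can therefore stand beside libraries that disagree. Ccl6, for example, was called lower but was at 0.85 in the control library alone. The libraries also differ in treatment. Of 6833 genes tested, 583 (8.53%) were higher and 444 (6.5%) lower in mature cells, at a median difference of -0.02. Of 5537 genes tested in the 45 cells low in other myeloid transcripts, 910 were higher and 977 lower. DESeq2 called 185 higher and 69 lower, and 26 of the genes named here lost their call with it, among them Nfkb2, Nfkbie, Map3k14, B2m, H2-K1, Il15, Tnfsf9, Icosl and the 7 lower chemokine genes. Flt3-gated cells also carried macrophage markers, at 9684 and 12869 CPM. They were not limited in other myeloid transcripts, so the comparisons in the 45 cells remove such RNA from the mature side only.

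Chemokine genes differed in both directions. Of 15 chemokine genes tested, 4 were higher and 7 lower in mature cells, with a median of 0.11. Ccl5, a chemokine that draws T cells, stood at 4362 CPM in control and 5136 CPM in anti-VEGF mature cells, against 264 and 66.2 CPM in Flt3-gated cells. The ranges of the gates did not overlap, at a log2 difference of 5.18 (SE 0.26, edgeR adjusted p = 1.17e-79). Ccl17, which like Ccl22 attracts T cells through CCR4, was at 571 and 679 CPM against 69.9 and 72.2 CPM (log2 difference 3.21, SE 0.34, edgeR adjusted p = 9.7e-19). Ccl22 itself, a selecting gene, was at 1150 and 1923 CPM against 7.11 and 21.1 CPM. Cx3cl1, a membrane-bound chemokine, was higher by 5.90 and Cxcl16 by 0.80 on the log2 scale. The 7 lower genes were the inflammatory chemokines Ccl2 (-2.41), Ccl7 (-2.05), Ccl4 (-1.69), Ccl6 (-1.68), Ccl8 (-1.53), Cxcl10 (-0.98) and Ccl12 (-0.89), which macrophages also make. In the control library alone, Ccl7 (0.02) and Ccl6 (0.85) were not lower. In the 45 cells low in other myeloid transcripts, 4 genes were again higher and 11 lower, at a median of -3.09. The Flt3-gated cells were not limited in this way.

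Detection was also read with each cell thinned to 5000 UMIs. Ccl5 was seen in 93.3% of control mature cells (45 cells, the 10 shallower ones left out) and in 95.2% of the 21 anti-VEGF ones (94.5% and 95.2% before thinning). Flt3-gated cells had it in 3.70% and 5.88%, and collagen-gated cells without Ptprc, which should lack it, in 2.03% and 1.5%. Ccl22, whose detection in mature cells is raised by its use in the gate, was seen in 84.4% of control mature cells (70.5 to 93.5) and in 95.2% of anti-VEGF ones (76.2 to 99.9). Flt3-gated cells had it in 7.41% and 23.5%, and collagen-gated cells in 0.290% and 0%. The median depths before thinning were 14189 and 12043 UMIs in mature cells and 45639 and 42171.5 in collagen-gated cells. Before thinning, Ccl22 was detected in 94.5% and 100% of mature cells.

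Of 9 cytokine genes tested, 4 were higher and 1 lower, with a median of 0.92. Il12b, which encodes the p40 chain shared by IL-12 and IL-23, stood at 543 and 1189 CPM in mature cells, against 0 and 39.1 CPM in Flt3-gated cells (log2 difference 6.10, SE 0.40, edgeR adjusted p = 8.38e-48). With the control Flt3-gated cells at 0, the control difference was at least 153-fold, taking 3 UMIs as the floor of a library. The genes of the partner chains were all but absent: Il12a had no UMI and Il23a 1 UMI in the 76 cells. Il15 (2.24) and Il15ra (4.34), the cytokine and the receptor chain that presents it to NK and CD8 T cells, were both higher. Il6 was at 14.1 and 14.6 CPM against 0 in both Flt3-gated sums, at least 3.96-fold and 3.23-fold higher. Tnf was lower (-1.67). Il10, which restrains antigen-presenting cells, had 1 UMI.

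Costimulatory genes were higher or did not pass the test. Of 11 tested, 7 were higher and none lower, with a median of 1.51. The list includes Relb, an NF-kappaB gene that is also counted with the NF-kappaB and transcription factor genes. Cd40, the receptor for T cell help through CD40L, was at 100 and 146 CPM against 13 and 36.1 CPM (log2 difference 2.51, SE 0.35, edgeR adjusted p = 6.29e-11). Cd80, a ligand of CD28 and CTLA-4, was at 66.0 and 105 CPM against 13 and 6.02 CPM, a log2 difference of 3.1. Cd86, the other ligand of this pair, differed by 0.50 and did not pass (edgeR adjusted p = 0.367). In the 45 cells low in other myeloid transcripts its difference was 1.21. Cd70, the ligand of CD27, was at 0 in both Flt3-gated sums and therefore at least 7.67-fold and 10.3-fold higher in the control and anti-VEGF mature cells. Tnfsf4, which encodes OX40 ligand, was likewise at least 4.95-fold and 3.87-fold higher. Tnfsf9 (the 4-1BB ligand) and Icosl were each higher by 1.51.

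Inhibitory genes did not move as 1 group. Of 12 immunoregulatory genes tested, 5 were higher and 2 lower, with a median of 0.46, and in the 45 cells low in other myeloid transcripts 6 were higher and 5 lower. Cd274, which encodes PD-L1, was at 200 and 390 CPM against 53.3 and 117 CPM (log2 difference 1.90, SE 0.33, edgeR adjusted p = 1.99e-07). Pdcd1lg2, which encodes PD-L2, was higher by 3.74. Cd200, whose product signals to an inhibitory receptor on myeloid cells, was at 273 and 318 CPM against 22.5 and 9.03 CPM, a log2 difference of 4.26 (SE 0.38, edgeR adjusted p = 7.8e-27). The death receptor gene Fas (2.62) and the cytokine-signal inhibitor Socs1 (1.39) were also higher. Havcr2, which encodes TIM-3 (-2.83), and the inhibitory receptor gene Btla (-2.88) were lower. Ido1 and Ido2, genes of tryptophan breakdown, had no UMI.

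Genes of antigen presentation parted by MHC class. Of 13 class II genes tested none was higher and 11 were lower, with a median of -2.54, and in the 45 cells low in other myeloid transcripts 12 of 13 were lower. H2-Aa was at 2377 and 1538 CPM against 8355 and 7276 CPM (log2 difference -1.95, SE 0.19, edgeR adjusted p = 1.78e-21). H2-Ab1 was at 989 and 350 CPM against 5840 and 4671 CPM (-3.06), and Cd74, the invariant chain, at 5924 and 3674 CPM against 16062 and 12123 CPM (-1.5). Ciita, the master activator of class II genes, was at 13.2 and 2.91 CPM against 129 and 90.3 CPM (log2 difference -3.51, SE 0.43, edgeR adjusted p = 4.01e-14). The 2 genes that did not pass, Ctss (-0.26) and Lgmn (-0.35), encode lysosomal proteases that many myeloid cells express. Class I genes had the opposite balance, with 6 of 19 higher, 2 lower and a median of 0.55. B2m, the light chain of class I (0.93), H2-K1 (0.71) and the proteasome activator subunit Psme2 (1.54) were higher, while the peptide transporter gene Tap1 (-0.97) and the chaperone gene Calr (-0.94) were lower. With DESeq2, Tap1 and Calr lost their call, as did B2m and H2-K1. In the 45 cells 12 of 19 class I genes were higher and 1 lower, at a median of 1.12, and Tap1 (-0.58) lost its call. H2-M2, a nonclassical class I gene, was at 20.2 and 75.8 CPM against 0, at least 5.69-fold and 16.8-fold higher.

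**Figure D2:**
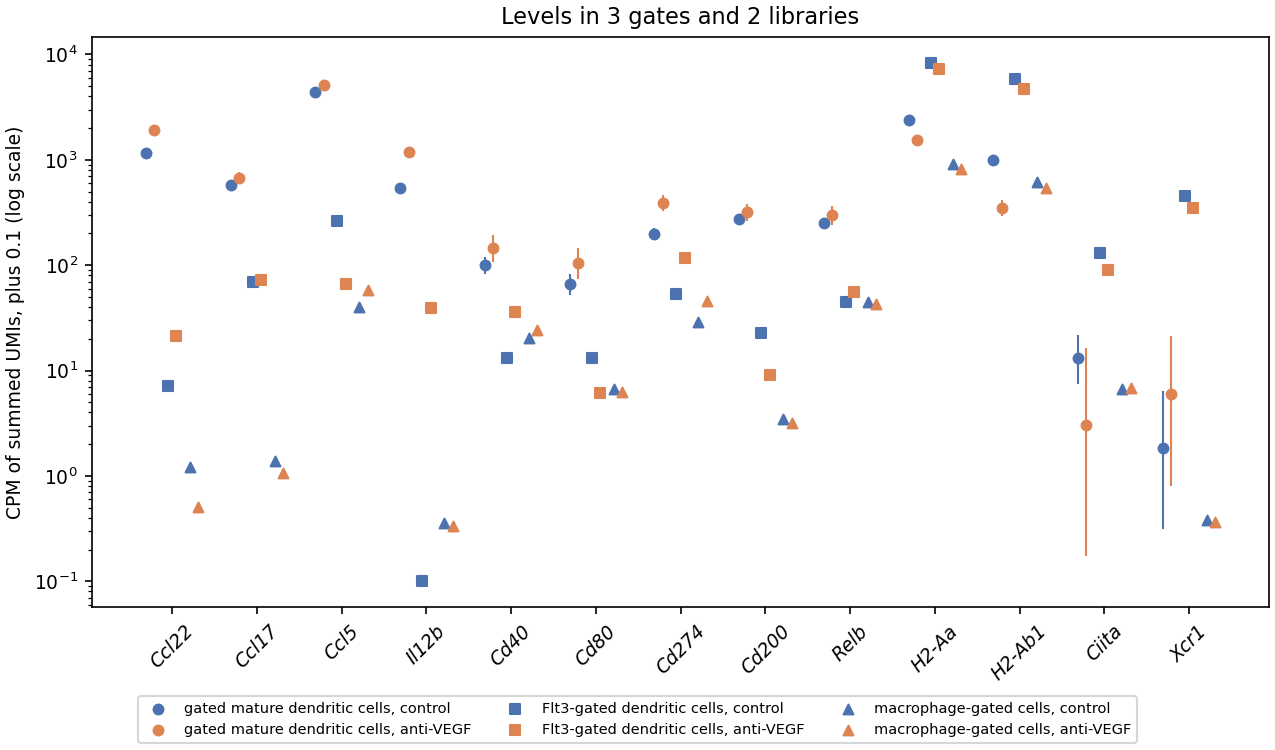
Levels of 13 genes in CPM (log axis, 0.1 added) in mature, Flt3-gated and macrophage-gated cells, 1 symbol per library; bars on mature cells are 95% Poisson intervals of the summed UMIs. Ccl17, Ccl5, Il12b, Cd40, Cd80, Cd200 and Relb lie higher in mature than in Flt3-gated cells in both libraries, while H2-Aa, H2-Ab1, Ciita and Xcr1 lie lower.

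NF-kappaB genes were higher across the pathway. NF-kappaB factors are held in the cytoplasm by IkappaB proteins. The noncanonical branch runs from CD40 and related receptors through the kinase encoded by Map3k14 to Nfkb2 and Relb. Of 22 genes tested, 19 were higher and none lower, with a median of 1.45, and 19 of 21 were higher in the 45 cells low in other myeloid transcripts. Relb was at 250 and 297 CPM against 45 and 55.7 CPM (log2 difference 2.52, SE 0.33, edgeR adjusted p = 2.52e-12). Its partner Nfkb2 was at 113 and 184 CPM against 40.3 and 58.7 CPM (1.64), and Map3k14 was higher by 1.80. The inhibitor gene Nfkbia was at 1699 and 1908 CPM against 538 and 765 CPM (1.57, edgeR adjusted p = 2.3e-08). A second inhibitor gene, Nfkbie, was at 106 and 119 CPM against 48.6 and 51.2 CPM (1.24). Birc2 (3.13) and Traf1 (2.32), adaptors of TNF receptor signalling, were higher as well. Rela (0.78), Bcl3 and Bcl2l1 did not pass the test.

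Promoters of this group were read because its genes were higher together. RefSeq promoter windows on GRCm38.p6, the 250 bases before the annotated start, were searched on both strands for GGG and TTCC with any 3 bases between them, a short form of the NF-kappaB motif. A match was found for 8 of the 20 NF-kappaB genes with a window (40.0%): Bcl2l1, Nfkb2, Nfkbia, Nfkbie, Rel, Tnfaip3, Tnip1 and Traf3. Of all 27025 genes in the table, 1434 (5.31%) had one. Among the maturation genes, 1 of 23 had a match, as did 3 of 13 chemokine genes and 1 of 10 class II genes. The 3 windows below show where the matches lie, in capitals, for an inhibitor pair and for the noncanonical subunit gene. Nfkb2 has 3 windows in the table, each with a match, and the first is printed. Their coordinates are chr12:55492648-55492897 (minus strand) for Nfkbia, chr17:45555450-45555699 (plus strand) for Nfkbie and chr19:46304487-46304736 (plus strand) for Nfkb2. A match is a description of these letters and does not show that a factor binds there.
Nfkbia: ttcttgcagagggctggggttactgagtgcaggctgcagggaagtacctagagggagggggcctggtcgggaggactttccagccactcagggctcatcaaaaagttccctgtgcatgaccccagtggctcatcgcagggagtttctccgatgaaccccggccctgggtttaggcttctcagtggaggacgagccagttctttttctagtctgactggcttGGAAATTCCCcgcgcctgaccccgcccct
Nfkbie: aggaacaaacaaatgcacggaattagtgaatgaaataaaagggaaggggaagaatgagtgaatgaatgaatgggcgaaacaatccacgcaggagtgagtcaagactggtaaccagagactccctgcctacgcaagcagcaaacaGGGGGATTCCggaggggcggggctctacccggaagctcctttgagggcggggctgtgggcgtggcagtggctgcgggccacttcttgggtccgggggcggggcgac
Nfkb2: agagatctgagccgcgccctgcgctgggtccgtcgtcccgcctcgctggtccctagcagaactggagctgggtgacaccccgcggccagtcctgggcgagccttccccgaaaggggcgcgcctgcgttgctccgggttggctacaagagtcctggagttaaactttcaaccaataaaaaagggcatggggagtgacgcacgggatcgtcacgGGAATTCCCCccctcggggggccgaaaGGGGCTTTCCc

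Other maturation genes were higher besides those used in the gate. Of 21 maturation and migration genes tested outside the gate, 19 were higher and none lower, with a median of 2.52. In the 45 cells low in other myeloid transcripts, 21 of 22 were higher. The highest differences in this list were in Nudt17 (5.73), Mreg (5.54), Serpinb9 (4.02), whose product inhibits granzyme B, Samsn1 (3.97) and Tmem123 (3.94). The 2 genes that did not pass were Cst3 (-0.37, edgeR adjusted p = 0.0556), which encodes cystatin C, and Cxcr4 (0.62, edgeR adjusted p = 0.311), the receptor for CXCL12. Il7r, the receptor gene for IL-7, was at 201 and 186 CPM against 8.29 and 1.51 CPM (5.26), and Il2ra, which encodes CD25, at 112 and 108 CPM against 4.74 and 1.51 CPM (5.07). Of the 20 chemokine and cytokine receptor genes tested, 5 were higher and 2 lower, and in the 45 cells 7 were higher and 6 lower. Ccr2 (-1.70), the receptor that draws monocytes, was among the lower ones.

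Of 21 transcription factor genes tested, 10 were higher and none lower, with a median of 0.59. Over the mature cells low in other myeloid transcripts, 12 of 19 were higher and 1 lower, at a median of 1.80. Stat4, a signal transducer of the IL-12 receptor, was at 239 and 341 CPM against 8.29 and 4.52 CPM (5.46), and Ikzf4 (5.42) and Irf4 (4.58) were higher too. Irf8 (-0.34, edgeR adjusted p = 0.485) and Batf3 (0.59, edgeR adjusted p = 0.2), factors of type 1 conventional dendritic cells, did not pass the test over all members. Over the mature cells low in other myeloid transcripts the differences were 0.33 for Irf8 and 1.36 for Batf3. Irf8 stood at 901 and 961 CPM in mature cells and 1620 and 954 CPM in Flt3-gated cells.

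Genes that mark type 1 conventional dendritic cells were lower in mature cells than in Flt3-gated cells. The Flt3 gate uses Xcr1 and Clec9a of this list, which favours cells with these markers. The 11 measured markers came to 266 and 151 CPM, with Itgae at 0, against 3480 and 2681 CPM in Flt3-gated cells. Outside the gates, 8 of the 8 tested were lower, with a median of -4.34. Macrophage-gated cells held 390 and 332 CPM of the 11 markers, and against them 2 were higher and 3 lower. Itgae, which encodes CD103, was at 244 and 242 CPM in Flt3-gated cells, so it was at least 92.5-fold and 27.7-fold lower in mature cells. Naaa, a lysosomal amidase gene, was at 87.1 and 20.4 CPM against 1347 and 897 CPM (-4.43), and Wdfy4, needed for cross-presentation, was lower too (-4.44). Sept3 (-5.42), Unc119 (-4.42), Rnase6 (-4.26), Sdad1 (-4.19), Cldn1 (-4.08), Gpr171 (-4.04) and Plbd1 (-4.01) complete the 10 lowest genes by the rule for named genes. Xcr1, a selecting gene of the Flt3 gate, was at 1.76 and 5.83 CPM against 457 and 352 CPM. Markers of type 2 cells came to 551 and 233 CPM against 540 and 537 CPM, with Cd209a at 0 in mature cells. Mature cells with at least 10 C1q UMIs held 813 and 610 CPM of these type 2 markers. Mature cells low in other myeloid transcripts held 61.9 and 54.9 CPM of them, and 75.0 and 114 CPM of the type 1 markers. The Flt3-gated cells were not limited in this way. Flt3 had a UMI in 48 of 76 mature cells, Xcr1 in 3 and Clec9a in 6.

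Uptake and cell-cycle genes depended on which mature cells were summed. Of 16 endocytosis and pattern recognition genes, 1 was higher and 4 were lower over all members. In the 45 cells low in other myeloid transcripts 15 were lower and the median moved from -0.27 to -3.55. The Flt3-gated cells were not limited in this way, so lower values of macrophage genes in the 45 cells follow in part from the limit. The higher gene was Ly75 (2.80), which encodes the antigen uptake receptor DEC-205. Of 20 proliferation genes, 7 were lower and none higher over all members, at a median of -0.72. In the 45 cells 16 were lower, at a median of -3.30. There Mki67 had a UMI in 1 cell, and Top2a in 5 of 27 control and 1 of 18 anti-VEGF cells. Glycolysis genes had 2 of 14 lower over all members and 11 of 13 in the 45 cells. Nrp2, a neuropilin that binds VEGF and semaphorins, was at 225 and 233 CPM against 46.2 and 111 CPM (1.75). Vegfa passed over all members (1.18, edgeR adjusted p = 0.0146), but its difference was -1.06 in the 45 cells, where its level was 9.78 and 22.9 CPM, and -0.19 in the anti-VEGF library alone. The actin list had 4 of 20 higher and 1 lower, the lipid list 1 of 15 higher and 3 lower, the interferon list 6 of 21 higher and 2 lower, and the hypoxia list 6 of 17 higher and none lower. Over the 45 cells the actin list had 8 of 20 higher and 3 lower, the lipid list 1 of 11 higher and 4 lower, the interferon list 5 of 18 higher and 5 lower, and the hypoxia list 5 of 15 higher and 6 lower. S100a9 (7.13) and S100a8 (4.61) were among the genes with the highest differences, but 1 cell of each library held 98.7% and 98.9% of the S100a9 UMIs.

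**Figure D3:**
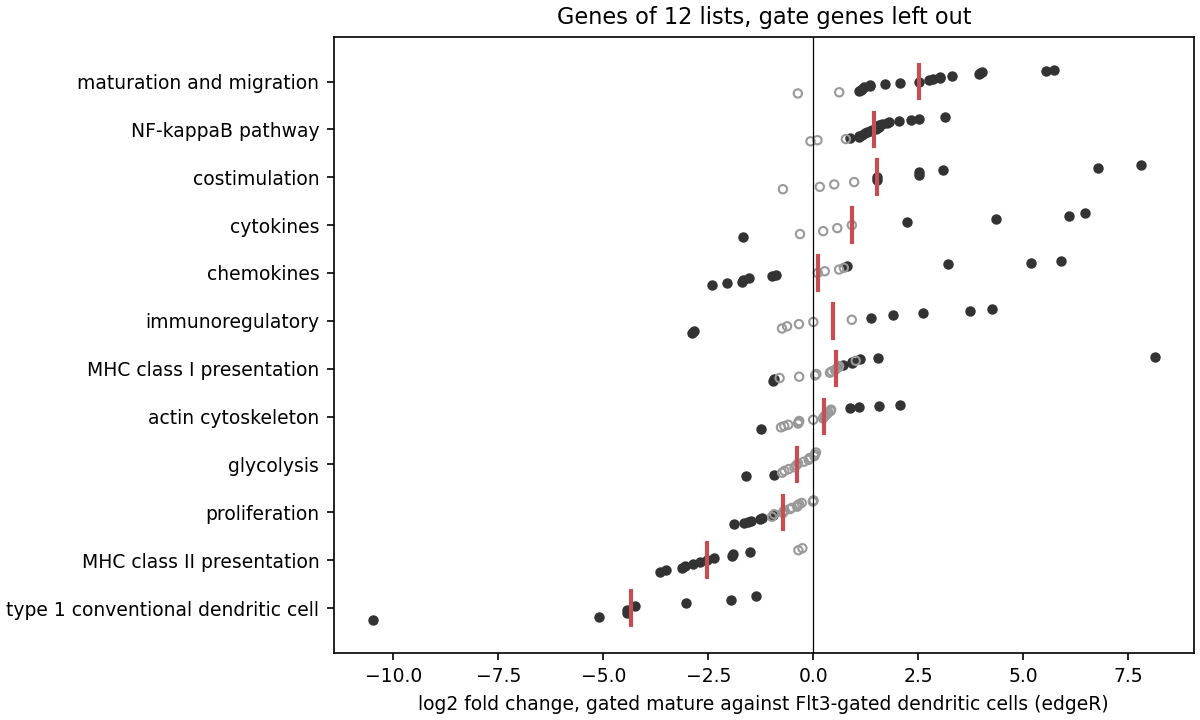
Log2 differences of the genes of 12 lists, mature minus Flt3-gated cells; filled points passed the edgeR test, open points did not, and the red line is the median of the list. The NF-kappaB and maturation genes lie mostly above 0, with medians of 1.45 and 2.52, and the class II genes lie below 0, with a median of -2.54.

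Against macrophage-gated cells the same groups were tested at greater depth. Of 13063 genes, 1257 (9.62%) were higher and 937 (7.17%) lower in mature dendritic cells, with a median of -0.13, or 0.00 with the 1013 genes at 0 in a gate set to their bound. Besides the gate genes, the named genes with the highest differences were Il12b (11.74), Ly75 (10.63), Mreg (9.84), Strip2 (9.71), Ccl17 (9.20), Stat4 (9.17), Ramp3 (9.15), Slc27a3 (8.84), Il2ra (8.27) and Serpinb6b (7.22). Il12b had 0.261 and 0.234 CPM in macrophage-gated cells. The lowest were Fn1 (-2.51), Ccl2 (-2.44), Ctsl (-2.39), Cd93 (-2.35), Hmox1 (-2.27), Ccl7 (-2.19), Pf4 (-2.12), Col14a1 (-2.04), Ccl6 (-2.00) and Plau (-1.99), which include matrix, lysosomal and heme-handling genes of macrophages. The lower count depended on the members summed: 2198 genes were lower in the 45 cells.

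By list, 20 of 23 maturation genes were higher than in macrophage-gated cells (median 3.90), 18 of 22 NF-kappaB genes (1.23), 16 of 24 transcription factor genes (2.33) and 15 of 19 class I genes (1.12). Of 12 costimulatory genes 8 were higher, and of 21 endocytosis genes 16 were lower. Class II genes were not uniformly placed against macrophages: 5 of 13 were higher and 3 lower (median 0.28), and in the 45 cells 4 were higher and 5 lower (-0.59). H2-Aa (1.25, edgeR adjusted p = 4.29e-10) and Cd74 (1.14) were higher, and H2-Ab1 (0.15, edgeR adjusted p = 0.734) did not pass. Irf8 was higher than in macrophage-gated cells by 2.65 and Zbtb46, a factor of conventional dendritic cells, by 5.72.

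Within the 45 cells low in other myeloid transcripts, levels varied from cell to cell. Ccl5 ranged from 0 to 299.6 UMIs per 10000 (median 74.4), Il12b from 0 to 128.7 (median 2.95) and Ccl22 from 0 to 82.8 (median 21.4). Class II UMIs (H2-Aa, H2-Ab1, H2-Eb1 and Cd74) ranged from 1.97 to 685 per 10000, with a median of 41.1. Ccl5 and class II ran against each other, with a Spearman rho of -0.57 over 27 control cells and -0.73 over 18 anti-VEGF cells. This is a description of cells that share a library, and both measures are divided by the same cell total. The 8 cells with under 10 Ccl5 UMIs (5 control, 3 anti-VEGF) had 58.0 to 685 class II UMIs per 10000 (median 231), against 1.97 to 114 (median 32.7) in the other 37. The 8 cells held a median of 32.4 Ccr7 UMIs per 10000, against 19.3 in the others. Ccr7 chose the cells, so this is a description. Of the 8, 2 control cells were shallow, with 1206 and 1723 UMIs, and the first of them had 24.9 Ccl5 UMIs per 10000, the highest of the 8.

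**Figure D4:**
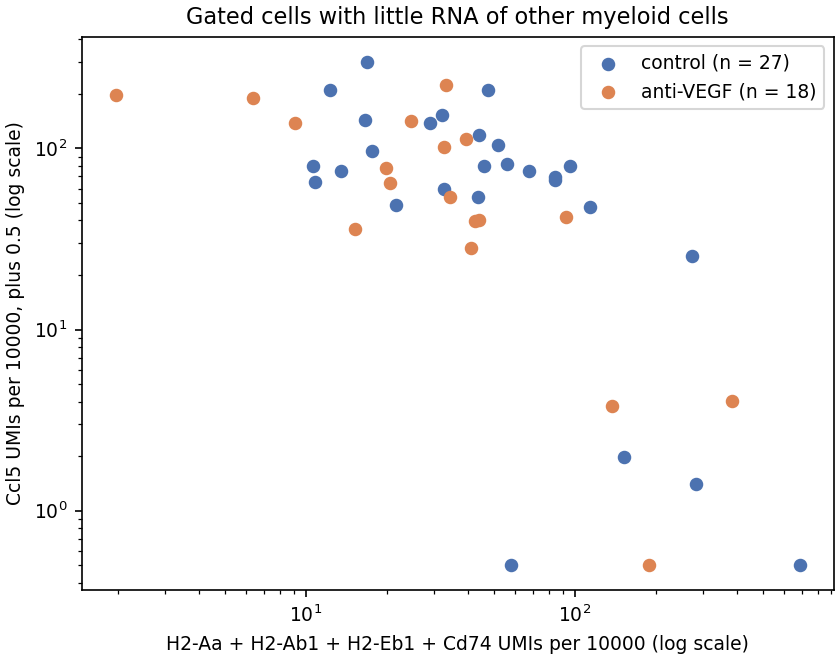
Each point is 1 of the 45 members low in other myeloid transcripts, with Ccl5 (plus 0.5, y axis) against class II (x axis) UMIs per 10000 on log scales, coloured by library. The 8 cells with under 10 Ccl5 UMIs lie at 58.0 to 685 class II UMIs per 10000, the other 37 at 1.97 to 114.

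Il12b and Ccl17 did not mark separate cells. Of the 45, 20 cells had UMIs of both, 11 of Il12b only, 12 of Ccl17 only and 2 of neither. Their Spearman rho was -0.46 over control cells and 0.14 over anti-VEGF cells, of opposite sign. After thinning, Il12b was detected in 57.8% of control and 57.1% of anti-VEGF mature cells (54.5% and 71.4% before thinning) and in 0.290% and 0% of collagen-gated cells. Cd274 was detected in 64.4% and 81.0% (78.2% and 85.7% before thinning), against 1.16% and 1.88% of collagen-gated cells. Cd200 was detected in 57.8% and 85.7% (74.5% and 95.2% before thinning), against 0.290% and 0.188%.

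The last comparison set anti-VEGF against control mature cells, 21 against 55 cells and 1 library each. It asks whether the antibody went with a change inside these cells. Ratios are anti-VEGF over control CPM, with exact 95% intervals that cover counting error only, and a gene was counted when its ratio was at least 2 or at most 0.5. Of 5202 genes with at least 30 UMIs, 137 (2.63%) were higher and 463 (8.9%) lower. In the 45 cells low in other myeloid transcripts, 58 (2.59%) of 2241 were higher and 88 (3.93%) lower. The share of higher genes among those past 2-fold went from 22.8% to 39.7%.

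Markers of macrophages, osteoclasts and monocytes were among the lower genes, whereas most neutrophil markers were higher. Of 11 macrophage markers 6 were lower past 2-fold and 1 higher. Of 5 osteoclast markers 5 were lower, and of 5 monocyte markers 3. Of 4 neutrophil markers 3 were higher and 1 lower. However, 1 anti-VEGF cell held 317 UMIs of the neutrophil list, and no other cell of that library held more than 3. The highest control cells held 357 and 315. Among the cells low in other myeloid transcripts no neutrophil marker had enough UMIs to be compared. Acp5 stood at 857 CPM in control and 43.7 CPM in anti-VEGF members, a ratio of 0.0510, and 1 cell held 50.2% of the control UMIs. In the 45 cells its ratio was 0.802 (0.360 to 1.71), which the limit on Acp5 and Ctsk brings about in part, since it removed 10 control members and no anti-VEGF member. Apoe, a lipid carrier of macrophages, went from a ratio of 0.123 to 1.03, Ccl8 from 0.150 to 1.03 and Ccl7 from 0.0703 to 1.05. Npl and Slc9b2 had no UMI in the anti-VEGF members and were at least 6.24-fold and 7.95-fold lower there. In the control cells low in other myeloid transcripts those genes were at 3.26 and 6.52 CPM. Fcgrt had 3 UMIs in the anti-VEGF members and a ratio of 0.0494 (0.0101 to 0.147). Gas6, Prdm1 and Hpgds had 1 UMI each there, with ratios of 0.0325 (0.000814 to 0.185), 0.0368 (0.000922 to 0.210) and 0.0448 (0.00112 to 0.257).

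The class II genes had ratios below 1 over all members and nearer to 1 in the 45 cells. Of 9 class II genes 6 were lower past 2-fold at a median log2 ratio of -1.14, and of 7 in the 45 cells none was, at a median of -0.40. H2-Aa had a ratio of 0.647 over all members and 0.821 (0.729 to 0.924) in the 45 cells, H2-Ab1 0.354 and 0.756, and Cd74 0.620 and 0.757. Without the members with at least 10 C1q UMIs, the log2 ratio of H2-Ab1 was 0.12. H2-Aa stayed below 1 at 0.458 without the cell of each library that held most of its UMIs.

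Maturation genes lay near a ratio of 1 in the 45 cells. Over all members the median log2 ratio was 0.50 for 26 maturation genes, 0.35 for 21 NF-kappaB genes and 0.66 for 9 costimulatory genes, and in the 45 cells it was -0.01, -0.06 and -0.06. Ccl22 had a ratio of 1.67 (1.52 to 1.84) over all members and 0.960 (0.859 to 1.07) in the 45 cells. Ccl5 went from 1.18 to 0.888 (0.831 to 0.947), and Cd200 from 1.16 to 0.695. Past 2-fold, 2 of the 26 maturation genes were higher and 1 lower, and in the 45 cells none of 25 was higher and 1 was lower. The sign of these small ratios therefore depended on the members summed.

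Ratios above 1 were common in both sets, at 2409 of 5202 genes over all members and 1109 of 2241 in the 45 cells. Il12b had a ratio of 2.19 (1.93 to 2.49) over all members and 1.52 (1.32 to 1.76) in the 45 cells. However, 1 anti-VEGF cell held 53.2% of its UMIs, and without the top cell of each library the ratio was 1.21. Cd274 went from 1.96 to 1.34 (1.03 to 1.75) and was 1.88 without the top cells. Pdcd1lg2 went from 1.58 to 2.50 (1.47 to 4.37), and to 1.30 without the top cells. Serpinb6b, a protease inhibitor, had 2.14, 1.57 (1.36 to 1.81) and 2.05 in the same order, and Irf1, a factor of the interferon gamma response, 2.43, 1.53 (1.13 to 2.08) and 2.41.

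By the rule for named genes, the highest ratios over all members were in Cd24a, Fam89a, Fam13b, B3gnt5, H2-M2, Irf4, Sik2 and Gbp2. Cd24a, a surface glycoprotein gene, was at 38.7 CPM in control and 166 CPM in anti-VEGF members, a ratio of 4.29 (2.85 to 6.51), with 3.03 (1.85 to 5.08) in the 45 cells and 3.02 without the top cells. B3gnt5, a glycosyltransferase gene, had 3.75, 3.91 (2.08 to 7.80) and 3.38 in the same order. H2-M2 had 3.74, 3.19 (1.51 to 7.18) and 3.50. Irf4 had 3.15 over all members and 1.99 in the 45 cells, where its interval (0.895 to 4.56) included 1, as did that of Gbp2 (1.25, 0.419 to 3.64) and of Sik2 (2.61, 0.966 to 7.71). These genes rest on few molecules, with 14 to 57 UMIs per library.

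Ratios of several interferon and inflammatory genes rested on few cells. Isg15, an interferon-induced ubiquitin-like protein gene, had a ratio of 0.684 over all members and 0.305 (0.190 to 0.473) in the 45 cells, and Irf7 0.659 and 0.253 (0.109 to 0.519). Of 4 interferon genes tested in the 45 cells, 1 was higher and 2 were lower. Without the top cells, over all members, Isg15 was at 0.848 and Irf7 at 0.670. Cxcl9 had a ratio of 8.41 over all members, but 1 anti-VEGF cell held 95.5% of its UMIs, and the ratio in the 45 cells was 0.936. Cxcl2 went from 1.93 to 16.8 (5.32 to 85.5), with 75.6% of the anti-VEGF UMIs in 1 cell, and Il1b from 1.18 to 2.55 (1.99 to 3.27), with 46.0% in 1 cell. Glycolysis genes had a median log2 ratio of 0.15 over 14 genes and 0.61 over 9 genes in the 45 cells, where 3 were higher past 2-fold. Pkm, the gene of pyruvate kinase, went from 1.23 to 2.03 (1.39 to 2.99), and was 0.860 without the top cells over all members.

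**Figure D5:**
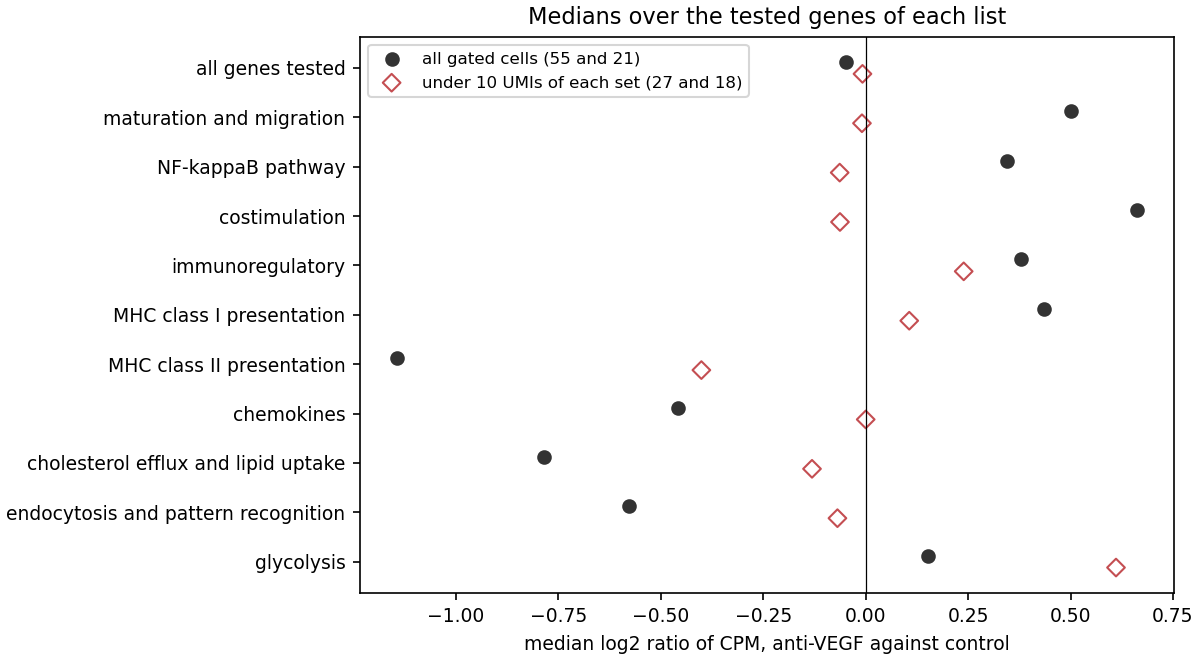
Median log2 ratio of anti-VEGF over control CPM for each gene list, over all 76 members (55 and 21 cells) and over the 45 low in other myeloid transcripts (27 and 18 cells). The class II median moves from -1.14 to -0.40 and the maturation median from 0.50 to -0.01.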

How the data were processed

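Single-cell RNA was measured with 10x 3' v3.1 chemistry in 2 libraries, 1 per antibody. The authors deposited unnormalized UMI counts, made with Cell Ranger and the mm10 genome. Version 3.0.2 is named per the submitters' processing notes and 3.1.0 per the file headers. Cells with at least 300 genes, 500 UMIs and at most 10% mitochondrial UMIs were kept. No doublet caller was run. UMIs were summed per library and gate, given as CPM with exact Poisson intervals, and gates were tested with edgeR 4.0.16 (TMM, filterByExpr, quasi-likelihood test, library as a block, adjusted p under 0.05) in R 4.3.3. Genes that define a gate were left out of calls. Between antibodies, ratios of CPM over genes with at least 30 UMIs were described, with exact conditional binomial intervals and 1 CPM added for log2 ratios. On simulated counts for the Flt3-gated comparison (6698 genes), 5% of 2-fold and 59% of 4-fold changes were recovered, and for the macrophage comparison (13171 genes) 7% and 52%.

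The members and gene lists were chosen with earlier results of these data known. Named genes are the list members, the 10 called genes with the highest and the lowest log2 difference at 100 CPM or more, and the 8 highest and lowest ratios detected in at least 20% of members. A few genes that this rule names are not reported here. The set low in other myeloid transcripts and the removal of top cells were chosen after seeing the data. Alternatives covered the gate, the cell filter, DESeq2, the library block, the UMI minimum and the pseudocount.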

Additional observations from a re-analysis of the deposited data

How the results depend on the processing

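The control share of mature dendritic cells was 0.324% without members with at least 10 C1q UMIs and 0.25% in the cells low in other myeloid transcripts, where the difference between libraries was -0.0293 percentage points. Mature cells were 86.7% (control) and 82.6% (anti-VEGF) of gated dendritic cells when the gate was read on thinned cells. They were 50% of the control ones in the low set, where the Flt3-gated cells were not limited. For anti-VEGF against control, 137 genes were higher and 463 lower; this became 58 and 88 in the low set, 419 and 1215 at a minimum of 10 UMIs, 27 and 110 at 100 UMIs, 216 and 760 for means over cells, and 64 and 258 with a pseudocount of 10 CPM. The lower count was 291 with at least 2 UMIs of Ccr7 and Fscn1 and 307 with the thinned gate. Against Flt3-gated cells, 583 higher and 444 lower became 185 and 69 with DESeq2, all within the edgeR calls, and 910 and 977 in the low set, and 285 were lower without the library block. Against macrophage-gated cells, 937 lower became 305 with DESeq2, 520 without the block and 2198 in the low set. Among named genes, 26 lost their call against Flt3-gated cells with DESeq2 (Itgae and Rnase6 among them) and 11 without the block. Against macrophage-gated cells Ccl7 lost it with DESeq2, and Ccl2, Ccl6 and Ccl7 without the block. Some log2 differences from Flt3-gated cells changed sign. Vegfa, called at 1.18, was -0.32 without members with at least 10 C1q UMIs, -1.06 in the low set and -0.19 in the anti-VEGF library alone. Ccl7 and Ccl6, called lower, were 0.0176 and 0.85 in the control library alone. The others had not passed: in the control library alone Cd86 was -0.0385, Ctss 0.16, Lgmn 0.16 and Bcl2l1 0.35, and in the anti-VEGF library alone Cxcr4 was -0.28 and Irf8 0.0108. Without the C1q-rich members Bcl3 was -0.11, Bcl2l1 0.13, Cst3 0.12 and Irf8 0.10 (low set: Bcl2l1 0.33, Cst3 0.41, Irf8 0.33). H2-Ab1 against macrophage-gated cells was -0.14 with at least 2 UMIs of Ccr7 and Fscn1, -0.37 without the C1q-rich members and -0.64 in the anti-VEGF library alone. Between antibodies, log2 ratios in the low set changed sign for Apoe (0.0449), Ccl8 (0.0410), Ccl7 (0.0712) and Cxcl9 (-0.0869), and without the C1q-rich members for Ccl7 (0.47), H2-Ab1 (0.12) and Cxcl9 (-0.61), which was -1.35 with the thinned gate. Beyond what each setting removes, the causes were not tested. No paired analysis was possible because each antibody has 1 library. Depth limits what 76 cells show: genes under 30 UMIs were not compared between antibodies.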
